A study of Mus musculus with 13 samples.

Results

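P23, encoded by Ptges3, is a co-chaperone that joins HSP90 in the last steps of client protein folding and also has prostaglandin E synthase activity. RNA-binding proteins are studied by RNA immunoprecipitation (IP): cells are UV-irradiated so that proteins are linked to the RNA they touch, the protein is pulled down with an antibody, and the RNA that comes with it is sequenced. Every such pull-down also recovers RNA that sticks to beads, antibody or tube, in amounts that depend in part on how abundant the RNA is. An IP with an antibody against a protein the cells do not make measures that recovery.

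The comparison described here is the P23 IP of untreated macrophages (0 h of lipopolysaccharide, LPS) over the LUC IP of the same condition, for all 52 RNAs of the deposited table. The cells were RAW 264.7, an established mouse macrophage line, and both groups were precipitated from cytoplasmic extract of UV-crosslinked cells. The labels name Abcam's AB2814 as the antibody of the P23 IP, and the LUC IP used an antibody against luciferase, an enzyme that mouse cells lack. The 6 libraries compared are 3 P23 IPs and 3 LUC IPs, of 13 libraries in the series, which also holds 3 P23 IPs and 2 LUC IPs of cells given LPS at 10 ng/ml for 2 h and 1 input library per time, that is, extract RNA that was not precipitated. All come from 1 cell line, and bulk IPs cannot tell a larger bound share in every cell apart from binding in a part of the cells. Of 8 macrophage markers, the table holds 2, among them Tnfrsf11a, which was detected in every library, and it holds 0 of 11 markers of T cells, B cells, fibroblasts and epithelium, so the purity of the line could not be checked further.

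The table is not a random set of RNAs. The study kept these 52 because P23 IP exceeded LUC IP at 0 h on these same libraries, so that every RNA is higher with P23 by selection, and the fold changes below are descriptions without p-values. The selection may also bear on the size of the differences at low counts, as described below, whereas the libraries of 2 h took no part in it.

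Values are normalized counts, which are raw read counts divided by the library's size factor. The size factors were recovered from the variance-stabilized values in the table and were 0.740, 0.994 and 1.02 for P23 replicates 1, 2 and 3, against 0.461, 0.773 and 0.962 for LUC replicates 1, 2 and 3. Over the 52 RNAs the libraries held 9881, 11376 and 11866 raw counts with P23, against 3751, 4631 and 7186 with LUC, which are sums over the table and not library sizes. P23 replicates 2 and 3 did not differ beyond sampling noise over the RNAs (chi-square 53.9 on 51 degrees of freedom, p = 0.366), whereas P23 replicate 1 differed from both of them (p = 7.23e-34 and 1.08e-29) and the 3 LUC libraries differed from each other. Replicates 2 and 3 were therefore counted as 1 sample, although such agreement does not show that they are 1 culture. The labels call the replicates independent and biological. Means and standard deviations are thus over 2 P23 samples and 3 LUC samples, although each library's own value is shown. In the P23 means, replicate 1 weighs as much as replicates 2 and 3 together. Fold changes are log2 values of P23 IP over LUC IP from edgeR, each given as the value ± its standard error. With P23 replicates 2 and 3 as separate samples, their median over the table was 0.66 instead of 0.70.

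The largest differences were in 6 RNAs, of which the mRNA of the mitotic kinesin Kif15 had the most reads. The fold change of Gm16153 was the largest of all, at 3.35 ± 1.04, but rested on 30 raw counts with P23 and 2 with LUC summed over the libraries. The third, Gm15559, was at 2.11, and 43 of the 52 RNAs lay between 0.4 and 1. The median over the table was 0.70, the smallest value 0.45 (Ciao2a), and 9 RNAs (17.3%) reached 2-fold. These values hold on the scale of the size factors. By the paper's own measure, the ratio of mean TPM at 0 h, every mRNA it lists was past 2-fold. TPM scales reads by RNA length and by the library's total, and such ratios were not computed here. The libraries of the antibodies did not overlap for 42 of the 52 RNAs (80.8%).

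**Figure D1:**
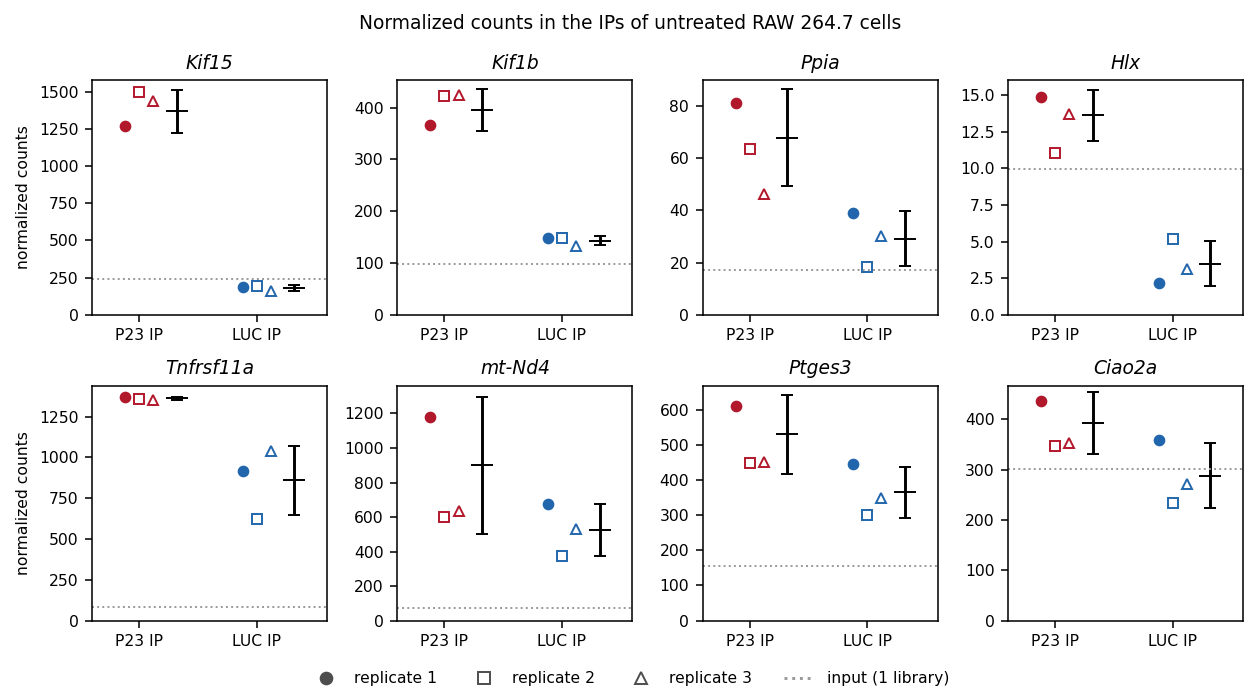
Normalized counts (y axis, from 0) of 8 RNAs in the P23 IP and LUC IP libraries of untreated cells; symbols are the replicates, the dash with bars is the mean ± SD over 2 P23 samples and 3 LUC samples, and the dotted line is the single input library. Kif15 and Kif1b separate the antibodies widely, while for mt-Nd4 and Ciao2a LUC replicate 1 reaches into the P23 libraries.

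On the scale of the size factors, the mRNAs that reached 2-fold were Kif15, Hlx, Kif1b, Ppia and Kif13a. The study derived a U/G-rich motif from the 3′UTRs of this same list, so U/G content is no independent feature of it. The 30-nt stretch of the 3′UTR richest in U/G runs is shown for these mRNAs and for Ptges3, whose protein was precipitated. Capitals mark letters that lie in runs of at least 6 U or G (written as T and G), and each line reads 5′ to 3′ on the mRNA strand of GRCm38. The stretches are chr9:123018411-123018440 (+ strand) for Kif15, chr1:184727439-184727468 (- strand) for Hlx, chr4:149177321-149177350 (- strand) for Kif1b, chr11:6419703-6419732 (+ strand) for Ppia, chr13:46749594-46749623 (- strand) for Kif13a and chr10:128077058-128077087 (+ strand) for Ptges3, all in the 3′UTR.
Kif15: tattttaTTTTTTTTTTTTTTGGTTTTTTG
Hlx: ctggacTTTGTGcctactttaaGTTGGTGG
Kif1b: ccaGGGGGGTGTGGTTTGTTTagcGTGGGT
Ppia: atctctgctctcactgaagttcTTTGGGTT
Kif13a: ttctcTTGTGGTGTGGGTTTGcTGTTTTTG
Ptges3: GTTTGGTTTTTTTTTTTTTTTTGTTTTGTT
The stretch of Ptges3 consists of U and G alone, whereas those of Hlx and Ppia hold only short U/G runs.

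Kif15 (chr9:122951046-123018733) encodes a plus-end directed motor that helps to keep spindle poles apart in mitosis. It was at 1266, 1497 and 1437 normalized counts in the P23 libraries, against 185, 194 and 158 in the LUC libraries. The lowest P23 library was 6.52 times the highest LUC library, the widest gap of the 52 RNAs. Its log2 fold change was 2.94 ± 0.29, and it stayed between 2.85 and 3.04 when any 1 library was left out. Its level was 1366 ± 142 with P23 (n = 2, SD) and 179 ± 18.7 with LUC (n = 3, SD). In the input it was at 238 normalized counts, so that the 3 P23 libraries lay above the input and the 3 LUC libraries below it.

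Kif1b (chr4:149176319-149307693), a motor that carries mitochondria and synaptic vesicle precursors along microtubules, was at 366, 423 and 425 normalized counts with P23, against 148, 149 and 133 with LUC. Every P23 library was above every LUC library, and the LUC libraries lay close together. The log2 fold change was 1.47 ± 0.22. Kif13a (chr13:46749087-46929867), whose motor moves mannose-6-phosphate receptors and recycling endosomes, was lower in reads, at 29.7, 41.3 and 33.4 with P23 and 17.4, 16.8 and 15.6 with LUC. The log2 fold change of Kif13a, 1.07 ± 0.31, was the smallest of the 3 kinesins and just past 2-fold. By quantitative PCR of P23 IPs, the paper found no specific binding for Kif13a and a weaker enrichment of Kif1b than of Kif15.

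Hlx (chr1:184727140-184732619) encodes a homeobox transcription factor of blood and gut development. It had 14.9, 11.1 and 13.7 normalized counts with P23, against 2.17, 5.18 and 3.12 with LUC, that is, few reads in all libraries. The P23 libraries lay above the LUC libraries, and the input stood between them at 10.00. The log2 fold change of 1.82 ± 0.52 was the fourth largest, with a standard error more than that of any other mRNA of the table. Ppia (chr11:6415443-6419817), the prolyl isomerase cyclophilin A that binds ciclosporin, gave 81.0, 63.4 and 46.2 normalized counts with P23, against 39.1, 18.1 and 30.1 with LUC. Its lowest P23 library, replicate 3, was only 1.18 times its highest LUC library, replicate 1. The log2 fold change was 1.21 ± 0.27, and reads of its many processed pseudogenes may have been counted with it or lost.

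The other 4 RNAs past 2-fold are non-coding or pseudogene transcripts with few reads. Gm16153 (chr10:4409033-4423369) had 4.05, 12.1 and 14.7 normalized counts with P23, against 2.17, 1.29 and 0 with LUC, of which 1 library held none. Per size factor the 30 counts with P23 were 11.97 times the 2 counts with LUC. The exact 95% interval, 3.04 to 103.3, covers counting error only and not the spread between libraries. Since the study selected Gm16153 on these same counts, an interval above 1 is no further support. Leaving out LUC replicate 1 moved its log2 fold change to 3.93, and leaving out LUC replicate 3 to 2.60. Gm15559 (chr5:110770949-110779260), an antisense transcript that shares exon bases with Pus1 on the other strand, had 13.5, 10.1 and 7.86 with P23, against 6.51, 1.29 and 1.04 with LUC. Its log2 fold change of 2.11 ± 0.75 became 3.03 without LUC replicate 1, the library that held most of its LUC counts, and 1.62 without LUC replicate 3.

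Mir22hg (chr11:75461539-75466676) is the host transcript of miR-22. It was at 16.2, 24.2 and 22.6 normalized counts with P23, against 2.17, 10.4 and 10.4 with LUC, a log2 fold change of 1.28 ± 0.38. About 10.7% of its exon bases lie within other genes, among them Tlcd2. The pseudogene Ppp4r1l-ps (chr2:173579320-173659640) was at 24.3, 24.2 and 24.6 with P23, against 17.4, 5.18 and 7.27 with LUC. The P23 libraries were nearly equal, whereas LUC replicate 1 was far above the other two LUC libraries, and the log2 fold change was 1.46 ± 0.43.

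The size of the fold change went with the amount of RNA. Among the 6 RNAs that averaged under 30 normalized counts over the 6 libraries, no log2 fold change was below 1.07 and the median was 1.64, with a median standard error of 0.47. The 21 RNAs between 30 and 100 had a median of 0.79, the 16 between 100 and 300 one of 0.57, and the 9 at 300 and over one of 0.60. The median standard errors of these 3 classes were 0.23, 0.20 and 0.24. The RNAs had been selected by adjusted p, which an RNA with few reads passes more readily with a large fold change. Low counts beside small fold changes may therefore be missing from the table. The part of the selection in this relation was not tested, since the table holds no RNA that failed it. Across the 52 RNAs the rank correlation (Spearman) of the fold change with the LUC level was -0.70, a description over points that share libraries and the LUC values themselves. Over the 25 RNAs that averaged at least 100, it was -0.035. Against the input level the values were -0.55 over all RNAs and 0.049 over those 25. Within this upper range, then, neither the background level nor the input level ordered the fold changes. Kif15 and Kif1b were the only 2 RNAs with at least 100 normalized counts on average that passed a log2 fold change of 1.

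**Figure D2:**
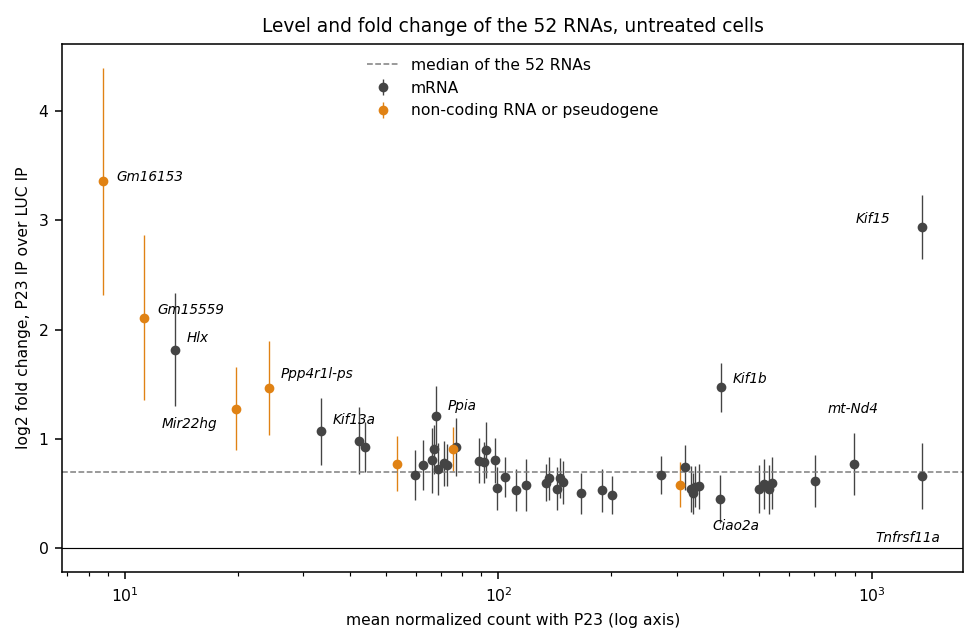
Log2 fold change of P23 IP over LUC IP (y axis, bars are standard errors) against the mean normalized count with P23 (x axis, log scale) for the 52 RNAs; non-coding RNAs and pseudogenes are orange, the dashed line is the median of 0.70. Below about 30 normalized counts no RNA lies near the median, and at high levels Kif15 (2.94) and Kif1b (1.47) stand above the rest.

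The ratio and the amount of RNA gained with P23 order the RNAs differently. Levels of different RNAs are set side by side here per kb of annotated exon, since longer RNAs yield more reads. That length merges the exons of all annotated transcripts of a gene, so it can exceed the length of the RNA present. It was 11.02 kb for Kif15, 1.378 kb for mt-Nd4 and 0.483 kb for Gm12693, and the ranks per kb carry that limit. By mean level with P23 the highest were mt-Nd4 at 652 normalized counts per kb, Gm12693 at 634, Ciao2a at 317, Ptges3 at 239, Tnfrsf11a at 228 and Fhl3 at 195. Kif15 was only 10th, at 124 per kb with P23 and 16.2 per kb with LUC. By the difference of P23 minus LUC per kb, mt-Nd4 held 17.9% of the sum over the table, Gm12693 14.1% and Kif15 7.11%, followed by Ciao2a with 5.59%, Tnfrsf11a with 5.55% and Ptges3 with 4.92%. These 6 together held 55.1%. Of the 6, only Kif15 was past 2-fold in its ratio. This order rests on P23 replicate 1: without it Kif15 came first with 11.8% of the sum, ahead of Gm12693 with 9.89%, Tnfrsf11a with 8.36% and mt-Nd4, which was then 5th with 6.69%.

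Of these abundant RNAs, mt-Nd4 is the mitochondrial mRNA for a core subunit of respiratory complex I. It was at 1180.5, 603 and 632 normalized counts with P23, against 675, 374 and 529.9 with LUC, with P23 replicate 1 far above the other P23 libraries. Its log2 fold change of 0.77 ± 0.28 fell to 0.24 without that library. The processed pseudogene Gm12693 (chr4:94935621-94936103) was at 362, 261 and 239.6 with P23, against 217, 167 and 224 with LUC, a log2 fold change of 0.58 ± 0.21. Reads of a processed pseudogene can come from the gene it was copied from, and which gene that is was not looked up here. Tnfrsf11a encodes RANK, the receptor through which macrophage precursors become osteoclasts. It was at 1369.6, 1356 and 1353 normalized counts with P23, against 916, 624 and 1037 with LUC. Its P23 libraries were nearly equal while its LUC libraries spread widely, and its log2 fold change was 0.66 ± 0.30.

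Ptges3, whose product is the precipitated protein, was at 611, 449.9 and 453 normalized counts in the P23 libraries, against 445, 302 and 350.2 in the LUC libraries, with the lowest P23 library just above the highest LUC library. The fold change of 0.54 ± 0.23 (log2) was below the median of the table. The other gene of the prostaglandin pathway in the table was Pla2g12a, a secreted phospholipase A2, with 113, 112 and 107 with P23, 89.0, 66.0 and 77.9 with LUC and a log2 fold change of 0.53 ± 0.19. Ciao2a, a factor of cytosolic iron-sulfur protein assembly, had the smallest fold change of the table although it stood 3rd per kb. It was at 436, 346 and 353 with P23, against 358, 233 and 272 with LUC, so that LUC replicate 1 exceeded P23 replicates 2 and 3. The log2 fold change of 0.45 ± 0.22 was the only one that edgeR did not call at an adjusted p of 0.05 (the other 51, or 98.1%, were called, a count that the study's selection on these libraries largely set). Fhl3 encodes a LIM-domain protein of muscle and blood cells, and was at 316, 336 and 343 with P23, against 274, 172 and 236 with LUC (0.54 ± 0.21).

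The transcription factors, the largest group with 8 members, had a median log2 fold change of 0.57, below that of the table. Only Hlx passed 2-fold and 2 of 8 lay above the table's median, against 26 of all 52 RNAs by definition. The members differ in level, and a trait of the group apart from level was not tested. E2f5, a repressor of cell cycle genes, was at 43.2, 47.3 and 42.2 with P23, against 21.7, 23.3 and 23.9 with LUC, and its log2 fold change was 0.93 ± 0.23. The libraries of each antibody lay close together, with a clear gap between the antibodies. Zbtb7b, known as ThPOK in T cells, had the highest mean normalized count with P23 in this group, close to that of Fhl3, at 381, 294 and 323 with P23 and 293, 169.5 and 239 with LUC (0.57 ± 0.21). Erf, an ETS-domain repressor, was at 173, 150.0 and 172 with P23 and 148, 109 and 103 with LUC, a log2 fold change of 0.50 ± 0.18. Rfx5, an activator of MHC class II genes, had a log2 fold change of 0.67 ± 0.23, and 26.8% of its exon bases are shared with another gene on the opposite strand, where unstranded counting cannot assign reads. Thra, the thyroid hormone receptor alpha, had 0.58 ± 0.24.

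Signalling and survival genes included Cd101, an immunoglobulin-family surface protein, at 41.9, 33.2 and 52.1 with P23 and 34.7, 20.7 and 14.5 with LUC. At 0.99 ± 0.31, its log2 fold change was the largest below 2-fold, yet LUC replicate 1 was above P23 replicate 2. Prr5, a component of the kinase complex mTORC2, was at 93.2, 52.3 and 69.7 with P23, against 47.8, 25.9 and 44.7 with LUC, and its log2 fold change was 0.93 ± 0.27. The median of the 5 RNAs in this group, 0.81, was above that of the table. Pim1, a serine/threonine kinase that promotes survival, was at 77.0, 51.3 and 60.9 with P23, against 52.1, 24.6 and 38.4 with LUC, again with LUC replicate 1 in the range of P23. For Pim1 the log2 fold change was 0.81 ± 0.30. Bcl2l2, which encodes the anti-apoptotic protein BCL-w, was at 213, 188 and 192 with P23, against 156, 132 and 143 with LUC, and its log2 fold change of 0.49 ± 0.17 was the second smallest.

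Of the chromatin and elongation genes, Meaf6, a subunit of histone acetyltransferase complexes, led by fold change at 0.90 ± 0.26. It was at 115, 65.4 and 74.6 with P23, against 69.5, 37.5 and 42.6 with LUC, and P23 replicate 1 was far above the other two. Kmt5a, the histone H4 lysine 20 monomethyltransferase, was the most abundant of them by reads, at 759, 634 and 661 with P23 and 536, 393 and 449.9 with LUC (0.62 ± 0.24). Paf1 and Atxn7l1 had log2 fold changes of 0.60 and 0.64 (standard errors 0.17 and 0.20). Of the RNA-related genes, Nsa2, a ribosome assembly factor, was at 115, 103 and 84.5 with P23, against 60.8, 60.8 and 71.7 with LUC, a log2 fold change of 0.65 ± 0.18. Msi2, which encodes the RNA-binding protein Musashi-2, was at 340.4, 328 and 335 with P23, against 206, 214 and 257 with LUC, a log2 fold change of 0.57 ± 0.18. Both were below the table's median. For Nsa2, 37.2% of exon bases overlap Fam169a or Gfm2 on the other strand.

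Scaffold, polarity and junction genes stood above the table's median in 3 of 3, where by definition 26 of the 52 RNAs do. Their mean levels with P23 ran only from 67.4 to 72.6. All RNAs that averaged 30 to 100 normalized counts had a median of 0.79, so these values are near those of RNAs of like level. Cldnd1, which encodes a claudin-like membrane protein, was at 71.6, 64.4 and 61.9 with P23, against 26.1, 29.8 and 45.7 with LUC, with a log2 fold change of 0.91 ± 0.22. Pard6b, a scaffold of the cell polarity complex listed as Pard6a in the study's own table, was at 75.6, 72.5 and 66.8 with P23, against 34.7, 41.4 and 47.8 with LUC (0.76 ± 0.19). Dlg4, the postsynaptic scaffold PSD-95, had 0.73 ± 0.23. Of the Golgi glycosyltransferases, Lfng, which extends sugars on Notch receptors, was at 91.8, 77.5 and 93.3 with P23, against 63.0, 37.5 and 54.0 with LUC, a log2 fold change of 0.80 ± 0.20. B4galt5, a lactosylceramide synthase, was at 575, 479 and 527 with P23, against 423, 248 and 399 with LUC, a log2 fold change of 0.60 ± 0.24. Rnf166, a ubiquitin ligase gene, had a log2 fold change of 0.55 ± 0.20.

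Genes of iron-sulfur and mitochondrial function had a median of 0.55, with 2 of 5 free of overlap between the antibodies, Bola3 and Cisd2, against 80.8% over the table. Bola3, which helps insert iron-sulfur clusters into mitochondrial proteins, was at 91.8, 88.6 and 93.3 with P23, against 58.6, 44.0 and 57.1 with LUC, and the log2 fold change of 0.79 ± 0.19 was the largest of this group. Cisd2, an iron-sulfur protein of the endoplasmic reticulum, had a log2 fold change of 0.54 ± 0.22, and Slc25a44, a mitochondrial carrier, one of 0.55 ± 0.20.

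Among the remaining genes, Ccdc115, which takes part in V-ATPase assembly, was at 369, 284 and 244 with P23, against 174, 155 and 229 with LUC (0.74 ± 0.20), and the autophagy gene Nrbf2 was at 66.2, 60.4 and 57.9 with P23 and 39.1, 28.5 and 41.6 with LUC (0.77 ± 0.23). Cfap36, a ciliary protein gene, was at 113, 93.6 and 70.7 with P23, against 54.3, 45.3 and 62.3 with LUC (0.81 ± 0.21). Smim10l1, named for a small integral membrane protein, was at 348, 323 and 308 with P23, against 219, 251 and 229 with LUC (0.50 ± 0.19). For Smim14 the log2 fold change was 0.78 ± 0.20. The glycolytic enzyme gene Gapdh, often used as a reference, had 0.65 ± 0.18, and reads of its pseudogenes may be counted with it. Nudt3, a phosphohydrolase, was at 609, 399 and 442 with P23 and 417, 268 and 343 with LUC (0.59 ± 0.23). Isoc2a had 0.60 ± 0.20. The lincRNA 4632404H12Rik was at 72.9, 88.6 and 67.8 with P23, against 32.6, 38.8 and 46.8 with LUC (0.91 ± 0.20). F730043M19Rik, a lncRNA transcribed away from the start of Atxn7l1, was at 54.0, 56.4 and 49.1 with P23, against 32.6, 31.1 and 30.1 with LUC (0.77 ± 0.25). Neither overlapped between the antibodies.

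**Figure D3:**
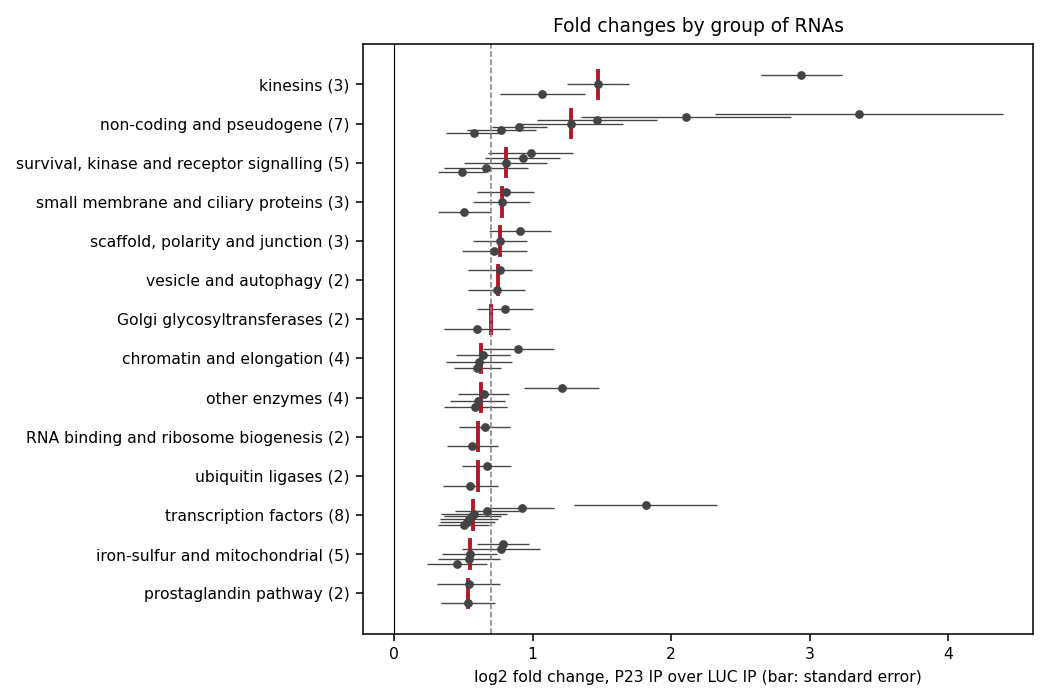
Log2 fold change of P23 IP over LUC IP (x axis, bars are standard errors) for the RNAs of each group (y axis, number of RNAs in parentheses); red bars are group medians and the dashed line is the median of all 52 RNAs, 0.70. Kinesins and non-coding RNAs have medians of 1.47 and 1.28, and the other groups lie between 0.54 and 0.81.

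Replicate 1 of each antibody was its highest library for most RNAs. P23 replicate 1 was the highest of the 3 P23 libraries for 35 RNAs, and LUC replicate 1 the highest of the 3 LUC libraries for 33, whereas LUC replicate 2 was the lowest LUC library for 32. The size factor of LUC replicate 1, 0.461, was the lowest of the 6. P23 replicate 1 exceeded every LUC library for all 52 RNAs. P23 replicate 2 exceeded LUC replicate 1 for 42 RNAs and P23 replicate 3 did so for 49. Overlap between the antibodies was therefore confined to LUC replicate 1 against P23 replicates 2 and 3, in 10 RNAs, among them Cd101, Meaf6, Pim1, mt-Nd4, Nudt3, Thra, Rnf166, Slc25a44 and Ciao2a. The median log2 ratio between single libraries ran from 0.379 for P23 replicate 2 over LUC replicate 1 to 1.02 for P23 replicate 1 over LUC replicate 2. The number of calls fell to 23 without P23 replicate 1 and to 31 without LUC replicate 2. The part that these libraries had in the overall level of the differences was not tested.

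The overall level of the fold changes depended on the scaling. When the median over the table was made equal in all libraries, the median log2 fold change moved by -0.60 to 0.10, 37 RNAs stayed above 0 and 15 fell below. Only 4 RNAs then reached 2-fold: Gm16153 at 2.83, Kif15 at 2.33, Gm15559 at 1.54 and Hlx at 1.24. The same 6 RNAs had the largest fold changes under both scalings. The paper's ratios by mean TPM at 0 h, a further scale, were above those by size factors for every mRNA it lists. Since this table holds no RNA that failed the selection, which scale is right cannot be told from it, and the direction of the 15 RNAs below 0, among them Ptges3 at -0.05 and Ciao2a at -0.13, is given with that limit.

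Compared with the input library of untreated cells, which has no replicate, the mean with P23 was above the input for 49 RNAs and the mean with LUC for 37. Only 6 RNAs had all P23 libraries above and all LUC libraries below the input: Kif15, Hlx, E2f5, Cfap36, Smim14 and Pla2g12a. For E2f5 the input was at 27.5 normalized counts, above its LUC libraries and below its P23 libraries. For 29 RNAs all 6 IP libraries exceeded the input. Bcl2l2 was one of them, with 16.1 in the input against 132.0 in its lowest LUC library. Tnfrsf11a at 81.5 and mt-Nd4 at 71.3 in the input were others, with their LUC libraries above the input as well. An input holds total extract RNA and the IPs hold precipitated RNA, each divided by its own size factor, 6.10 for this input. A level against the input is therefore relative to the other RNAs of each library. It is neither an amount recovered nor a measure of binding.

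In libraries of 2 h LPS, which played no part in choosing the RNAs and use other control libraries, 51 of the 52 RNAs had counts. Their log2 fold change of P23 over LUC was above 0 for 48, with a median of 0.40. For 33 of 51 (64.7%) the P23 libraries all lay above the LUC libraries. These counts rest on the same kind of size factors, whose scale between the antibodies could not be checked, and other scalings were not run at 2 h. The paper had removed LUC replicate III of 2 h as an apparent outlier. Kif15 had 3.14 (standard error 0.35) at 2 h beside 2.94 at 0 h, and Kif1b 1.36 beside 1.47. The paper reports a lower P23 to LUC ratio after LPS for both mRNAs by mean TPM. For Kif15 it also reports less enrichment by quantitative PCR and less co-localization with P23 by microscopy. Those measures are unlike the fold changes here, and a change between the times was not tested. Dlg4 had 1.02 at 2 h. E2f5 was at -0.89 ± 0.24, below 0. Kif13a was at -0.21 ± 0.45, an error larger than the value, so its sign at 2 h is not resolved. The 2 times' fold changes ranked differently across RNAs, with a Spearman correlation of 0.099 over 51 RNAs and 0.31 over the 25 with at least 100 normalized counts.

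The 3′UTRs of the mRNAs were read for U/G-only hexamers, that is, runs of 6 letters that are all U or G, in windows of 30 nt. Runs of U alone count as well, so the measure does not separate them from mixed U/G runs. The richest window of Fhl3, for example, is U alone. For 44 mRNAs a 3′UTR of at least 36 nt was found in GENCODE M21, among 18983 such mRNAs in all. The most such hexamers in any window had a median of 14 in the 44, against 7 in all, of 25 possible. Longer 3′UTRs hold more of them by chance, and the 44 were longer, with a median of 1463 nt against 882 nt. Of all 3′UTRs 21.2% held as many as the median member, and of 3′UTRs of similar length 31.3%. Kif15, with 18 in its 606 nt, had as many as 5.65% of similarly long 3′UTRs, whereas Hlx with 4 in 369 nt had as many as 62.8%, Ppia with 3 in 207 nt as many as 56% and Kif1b with 14 in 4449 nt as many as 61.7%. The full 25 was reached in 8 mRNAs, among them Prr5, Ptges3, Meaf6, Pim1, B4galt5, Msi2 and Fhl3. The median log2 fold change of these 8 was 0.63 and of the other mRNAs it was 0.66. Across the 44 mRNAs the rank correlation of the fold change with the hexamer count was -0.19, a description over RNAs that share libraries. Gapdh and Cfap36 had no such hexamer, at fold changes of 0.65 and 0.81.

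**Figure D4:**
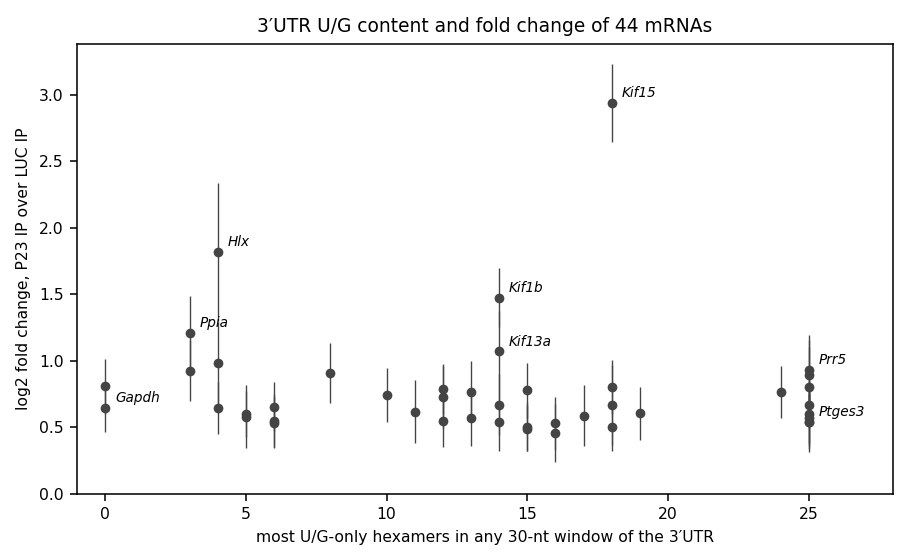
Log2 fold change of P23 IP over LUC IP (y axis, bars are standard errors) against the most U/G-only hexamers in any 30-nt window of the 3′UTR (x axis) for 44 mRNAs. The 8 mRNAs with 25 hexamers have a median of 0.63 and the points show no order along the axis, with Kif15 at 18.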

How the data were processed

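The raw counts were made by the authors with HTSeq 0.6.1, which assigned reads to genes without strand. Before that, Trimmomatic 0.33 had clipped the reads, FastQC 0.11.2 had served for quality control, and TopHat 2.0.14 had placed them on GRCm38. The deposited variance-stabilized log2 values were computed by the authors from counts divided by a size factor per library, which these values gave back to within 1e-12. Columns with the authors' fold changes, p-values and adjusted p-values were not used. RNAs outside the table were not analysed here, and the values of 2 RNAs of the table are not reported here.

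Fold changes came from edgeR 4.0.16 (quasi-likelihood, R 4.3.3) with those size factors and 4 group means, over 11 IP libraries taken as 9 samples. P23 replicates 2 and 3 of 0 h were summed to 1 sample, as were those of 2 h (chi-square p = 0.374). The plan had assumed 3 P23 samples. Calls are at an adjusted p of 0.05 over the 52 RNAs, by Benjamini-Hochberg. The labels call replicates independent and biological. IP size factors ranged from 0.461 to 1.02. PCR copies were not marked by molecular identifiers, so read counts can exceed the number of distinct RNA molecules and overstate the precision.

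DESeq2 1.42.0, limma 3.58.1, other scalings, a minimum mean normalized count of 20 and leaving out each library were alternatives. Positions, exon lengths, overlaps and 3′UTRs are from GENCODE M21, to which all 52 identifiers matched, with letters from the GRCm38 sequence. Each library's value is printed for the 6 largest and 6 smallest fold changes, the 6 highest levels with P23, and each group's leading members by fold change and level. The RNAs, groups and lists were chosen with earlier results of these data known. Figures used matplotlib 3.10.9 and tables pandas 2.3.3.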

Additional observations from a re-analysis of the deposited data

Results flagged for a closer look

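E2f5, which was higher with P23 than with LUC in every library of untreated cells, was lower with P23 in every library of 2 h LPS. At 2 h it was at 28.7, 32.7 and 32.1 normalized counts with P23, against 59.7 and 56.1 with LUC, a log2 fold change of -0.89, beside 0.93 at 0 h. What drew attention is that the libraries of the 2 times lie on opposite sides, and the difference between the times was not tested here. Groups of 2 and 3 samples are too small for a check of single outlying libraries.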

How the results depend on the processing

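Every RNA stayed above 0 with DESeq2 (50 called), limma (49), limma with trend and robust prior (51), limma with array weights (52, chosen after seeing the data), the 6 libraries of 0 h alone (48), a mean normalized count of at least 20 and every library left out in turn. The filter left 4 RNAs past 2-fold, because it removed Gm16153, Gm15559, Hlx, Ppp4r1l-ps and Mir22hg. Without scaling the median log2 fold change was 0.95 and 24 RNAs passed 2-fold. Leaving out 1 library, calls ranged from 23 (without P23 replicate 1) to 52, with 31 without LUC replicate 2, RNAs past 2-fold from 8 to 13, RNAs without overlap from 42 to 52 and the median from 0.59 to 0.75. Without P23 replicates 2 and 3, chosen after seeing the data, 14 RNAs passed 2-fold, 46 were called and the median was 0.84. With P23 replicates 2 and 3 as separate samples, also added later, 52 were called at a median of 0.66.

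Scalings that centre the table on itself changed most. With an equal median, the median log2 fold change was 0.10, 2 RNAs were called (4 at an unadjusted p under 0.05), 4 passed 2-fold, 7 did not overlap, and 15 were below 0, among them Ptges3 -0.0499, Zbtb7b -0.014, Fhl3 -0.028, Erf -0.082, Bcl2l2 -0.11, Slc25a44 -0.067, Nudt3 -0.0042, Rnf166 -0.039, Ciao2a -0.13, Smim10l1 -0.12, Gm12693 -0.033, Msi2 -0.046, Pla2g12a -0.055 and Cisd2 -0.075. With TMM (trimmed mean of M-values) the median was 0.0447, 2 RNAs were called, 4 passed 2-fold, and 22 were below 0, among them Ptges3 -0.12, Paf1 -0.043, Zbtb7b -0.078, Fhl3 -0.087, Isoc2a -0.055, Kmt5a -0.037, Erf -0.14, Bcl2l2 -0.17, Slc25a44 -0.13, Nsa2 -0.014, Nudt3 -0.072, Rnf166 -0.094, Gapdh -0.014, Ciao2a -0.19, Smim10l1 -0.17, Gm12693 -0.094, Msi2 -0.10, B4galt5 -0.043, Pla2g12a -0.11, Thra -0.051 and Cisd2 -0.13. Both assume that most of the 52 RNAs do not differ, in a table of RNAs selected for differing.

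Deviations of P23 and LUC libraries with the same number correlated at 0.29, 0.45 and -0.41. Deviations from the mean of only 3 libraries are tied to each other, so these values cannot decide whether the numbers pair the samples. With the replicate block, which needs P23 replicates 2 and 3 as separate samples, 52 RNAs were called and the median was 0.66. Depth limits the RNAs under 30 normalized counts, whose median standard error was 0.47. U/G counts in 50-nt windows gave the same median share of all 3′UTRs, 21.2%, and against 3′UTRs of similar length it was 31.3%.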
